A study of Homo sapiens with 4 samples.

Results

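Transcripts of 9 surface antigens of T cells were examined in Myla, a cell line of mycosis fungoides, the most common cutaneous T cell lymphoma. The antigens were CD2, CD4, CD5, CD6, CD7, CD8A, CD8B, CD96 and CCR7, chosen by gene name, and all 9 were found among the 58735 genes of the table. The cells had been transduced with a lentivirus carrying a scrambled hairpin RNA (shControl, genotype WT, 2 libraries) or hairpin RNA against FOXM1 (shFOXM1, genotype FOXM1 knockdown, 2 libraries). FOXM1 is a forkhead transcription factor of dividing cells. Both groups received fresh medium 24 h after transduction and were kept for a further 72 h, after which RNA was taken. Selection of transduced cells is not described, nor is it stated whether 1 hairpin or different hairpins were used for the knockdown. The libraries are numbered 1 and 2 in each group, and where a pair of values is given the first belongs to library 1. Myla is a single line, and no normal T cells were sequenced, so a level near 0 here is a level in this line and cannot be read as a loss relative to normal cells.

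CD4 and the CD8 proteins are co-receptors. They bind MHC class II and class I molecules and bring the kinase LCK to the T cell receptor. CD2 is an adhesion receptor for CD58, CD5 and CD6 are scavenger-receptor proteins that tune signals of the T cell receptor, CD7 is a small immunoglobulin-family protein, and CD96 binds the poliovirus receptor PVR. CCR7 is the chemokine receptor that guides T cells to lymph nodes along CCL19 and CCL21. Lymphomas of mature T cells often lack one or more of these proteins, and absence of CD7 or CD5 is used in their diagnosis by flow cytometry.

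The libraries held between 14147084 and 15017728 reads, recovered as whole numbers from the deposited FPKM values (fragments per kilobase of gene, scaled to library depth). FOXM1 itself was at 26.5 and 27.6 FPKM with the control hairpin and 9.27 and 5.59 FPKM under knockdown, a log2 difference of -1.77 that did not pass over all genes (limma, adjusted p = 0.173). In 13 of 16 alternatives FOXM1 did not pass either. It passed in voom with library weights (adjusted p = 0.0202) and in the fits without a knockdown library, where the spread comes from the shControl libraries alone. The log2 difference was -2.09 without shFOXM1 1 and -1.45 without shFOXM1 2, and FOXM1 was lower in every alternative run. The library with the lower FOXM1 level, shFOXM1 2, also had the lowest share of mitochondrial reads, 4.98% against 5.72 to 5.93% in the other libraries. Over all tested genes the SD of the log2 difference between libraries of a group was 0.424 under knockdown and 0.263 in controls.

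The 9 antigens fell into separate classes at baseline, with no member between them. CCR7, CD2, CD96 and CD8A were expressed, defined as at least 1 FPKM in both shControl libraries. CD4, CD5, CD6, CD7 and CD8B were near 0, defined as under 0.1 FPKM in both. Of 19951 protein-coding genes, 48.0% met the first limit and 39.3% the second. Of the co-receptors only CD8A was above the limit, and it was the member closest to it, at 1.23 FPKM in shControl 2, while the near-0 member with the highest level, CD5, reached 0.0438 FPKM in shControl 1. CCR7 ranked 120th by mean shControl level among protein-coding genes, CD2 ranked 704th, CD96 4788th and CD8A 9431st. CCR7, CD2, CD96 and CD8A followed each other in this order in each of the 4 libraries.

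**Figure D1:**
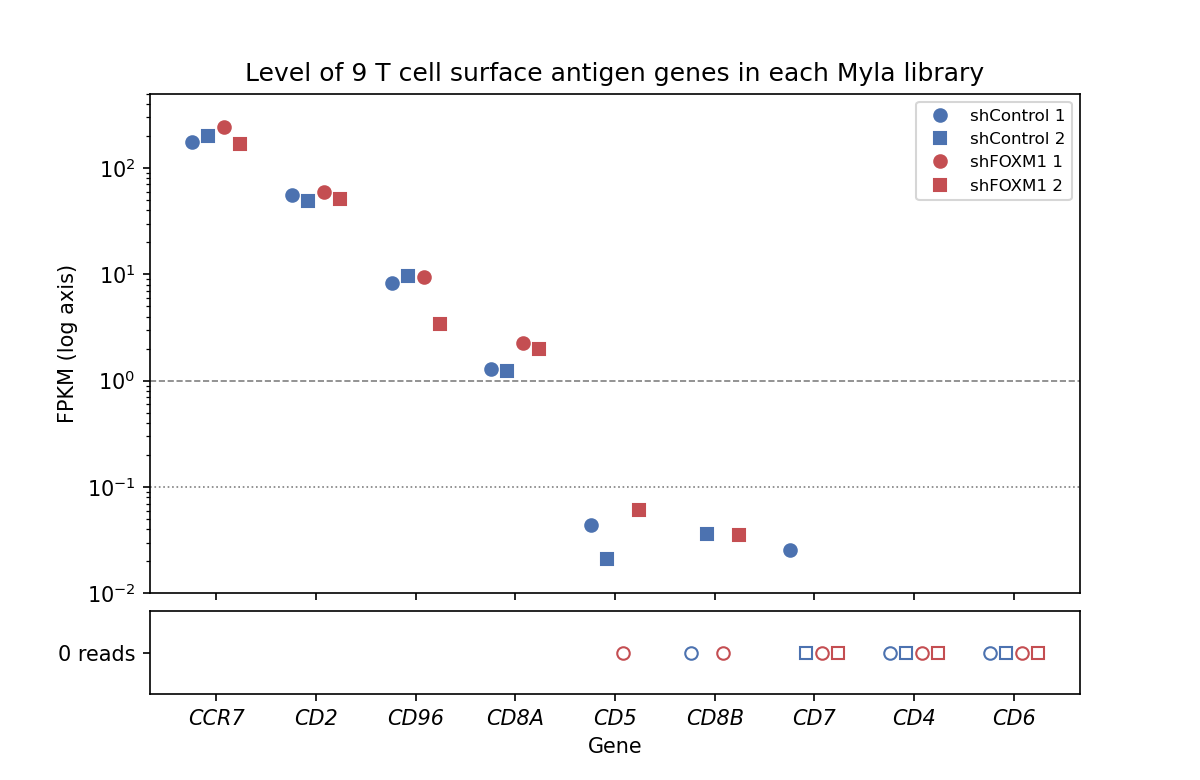
FPKM on a log axis (y) of the 9 antigen genes (x) in each library, with shControl in blue, shFOXM1 in red, circles for library 1 and squares for library 2 of a group. The dashed and dotted lines mark 1 and 0.1 FPKM, and open symbols in the lower panel are libraries with 0 reads. CCR7, CD2, CD96 and CD8A lie above 1 FPKM in all 4 libraries and the other 5 genes below 0.1 FPKM.

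The sequences before the start sites of expressed antigens are shown because they hold the annotated promoters of genes that this line transcribes. Of the 9 genes, 3 matched an entry of RefSeq's promoter table (build GRCh38.p14), namely CD2, CD8A and CD96. Each run below is the 250 bases before the RefSeq start on the gene's strand, 5′ to 3′, with CpG dinucleotides, the sites of DNA methylation, in capitals. The windows are chr1:116754180-116754429 on the plus strand for CD2, chr2:86808043-86808292 on the minus strand for CD8A and chr3:111541947-111542196 on the plus strand for CD96. The CD8A and CD96 windows lie inside the genes as the table spans them, and the CD2 window reaches across the table's start of CD2, so the starts used by RefSeq differ from those of the table. The bases right after the RefSeq start were found in a GENCODE transcript of the gene for CD2 and CD96, and not for CD8A. Which start this line uses cannot be read from gene-level values.
CD2: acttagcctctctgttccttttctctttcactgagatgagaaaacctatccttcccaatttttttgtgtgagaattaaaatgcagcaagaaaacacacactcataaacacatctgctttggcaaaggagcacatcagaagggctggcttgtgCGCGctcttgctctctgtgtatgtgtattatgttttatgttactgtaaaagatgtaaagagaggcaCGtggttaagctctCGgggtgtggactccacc
CD8A: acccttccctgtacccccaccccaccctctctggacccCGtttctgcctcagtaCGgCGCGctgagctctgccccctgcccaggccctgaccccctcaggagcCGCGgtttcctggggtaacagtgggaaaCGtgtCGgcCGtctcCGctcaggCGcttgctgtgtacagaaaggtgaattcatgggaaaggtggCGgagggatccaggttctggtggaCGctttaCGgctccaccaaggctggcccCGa
CD96: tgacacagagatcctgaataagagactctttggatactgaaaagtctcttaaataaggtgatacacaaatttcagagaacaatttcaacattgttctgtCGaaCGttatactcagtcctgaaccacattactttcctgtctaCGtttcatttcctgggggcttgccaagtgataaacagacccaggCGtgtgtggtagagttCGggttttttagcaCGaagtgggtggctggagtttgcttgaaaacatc
The CD8A window held 15 CpG and was 64.4% G or C. The CD2 window held 4 CpG at 42.8% and the CD96 window 6 CpG at 42%, against medians of 11 CpG and 58% over 27305 promoters of the same length. CD8A, the lowest of the 3 in level, had the window with the most CpG. Each window was searched on both strands for 3 motifs. The cell cycle homology region, an element of promoters bound by FOXM1 with MuvB, was searched as TTTGAA, which 13.6% of all promoters held. Its variant TTTAAA was held by 11.4% of promoters. The forkhead motif was searched as TGTTTAC, held by 2.98% of promoters. No motif was found in the 3 windows, which says only that these letters are not there.

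CCR7, the lymph node homing receptor, had the highest level of the 9 antigens. It was at 177 and 202 FPKM in control cells against 241 and 169 FPKM in knockdown cells, on 6295 to 8955 reads a library. The shFOXM1 libraries lay on either side of both shControl libraries, so the groups overlapped. The mean was 189 ± 17.5 FPKM in shControl and 205 ± 50.9 FPKM in shFOXM1 (SD, n = 2 each). On the log2(FPKM + 1) scale, on which all fold changes here are given, the difference was 0.10 with a 95% interval from -0.41 to 0.61 (limma, adjusted p = 0.827 over all genes). The gene (ENSG00000126353) spans 40553769 to 40565472 of chromosome 17, minus strand.

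CD2, the adhesion receptor, was at 55.7 and 49 FPKM with the control hairpin and 59.3 and 51.5 FPKM under knockdown. The groups overlapped here too, with shFOXM1 2 between the shControl libraries. The means were 52.3 ± 4.75 FPKM in shControl and 55.4 ± 5.51 FPKM in shFOXM1 (SD, n = 2 each), a log2 difference of 0.08 (95% interval -0.26 to 0.42; limma, adjusted p = 0.774). The gene (ENSG00000116824) spans 116754385 to 116769228 of chromosome 1, plus strand, and its values rest on 1213 to 1474 reads a library. The differences of CCR7 and CD2 were among the smaller ones, since 74 and 78% of tested genes had a larger absolute log2 difference.

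CD8A, the chain present in every form of the CD8 co-receptor, was the only antigen whose groups did not overlap. It was at 1.3 and 1.23 FPKM in control cells against 2.27 and 1.99 FPKM in knockdown cells. Both shFOXM1 libraries were above both shControl libraries, at 1.79 and 1.57 times the shControl mean. The means were 1.27 ± 0.0481 FPKM in shControl and 2.13 ± 0.199 FPKM in shFOXM1 (SD, n = 2 each), a ratio of 1.68. These values rest on 67, 66, 122 and 110 reads in the same order, or 133 reads in shControl (95% exact Poisson interval 111 to 158) and 232 in shFOXM1 (203 to 264), intervals that cover counting error only. The log2 difference was 0.46 (SE 0.15, 95% interval 0.06 to 0.86), which did not pass the test (limma, adjusted p = 0.241 over all genes). Groups that do not overlap were found for 53.2% of the 12033 genes tested, with shFOXM1 higher for 27.3% and lower for 25.9%, and 15.8% of tested genes had a larger absolute log2 difference than CD8A. Voom on the recovered reads, which adds no pseudocount of that size, gave CD8A a log2 difference of 0.76 (adjusted p = 0.180). The gene (ENSG00000153563) spans 86784610 to 86808396 of chromosome 2, minus strand.

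CD96, the receptor for PVR, was low in 1 of the knockdown libraries. It was at 8.28 and 9.54 FPKM in control cells, at 9.4 FPKM in shFOXM1 1 and at 3.41 FPKM in shFOXM1 2. The value of shFOXM1 1 lay between the shControl libraries and that of shFOXM1 2 was 0.382 times the shControl mean, on 299 reads against 677 to 811 in the other libraries. The means were 8.91 ± 0.892 FPKM in shControl and 6.4 ± 4.24 FPKM in shFOXM1 (SD, n = 2 each), a log2 difference of -0.55 with a wide 95% interval from -1.63 to 0.53 (limma, adjusted p = 0.528). The log2 gap between the shFOXM1 libraries was 1.24, and 1.46% of tested genes had a larger one. Without shFOXM1 1 the log2 difference was -1.17 and without shFOXM1 2 it was 0.07. In both fits the spread comes from the shControl libraries alone. shFOXM1 2 is also the library with the lower FOXM1 level and mitochondrial share, and the part of either in the CD96 value was not tested. The gene (ENSG00000153283) spans 111292719 to 111665750 of chromosome 3, plus strand, and 5 other genes of the table overlap it. Among them are ZBED2 on the opposite strand, with 0 FPKM in every library, and AC055748.1, a processed pseudogene on the same strand. AC055748.1 had 4 and 2 reads in the shControl libraries, 15 reads in shFOXM1 1 and 1 read in shFOXM1 2.

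**Figure D2:**
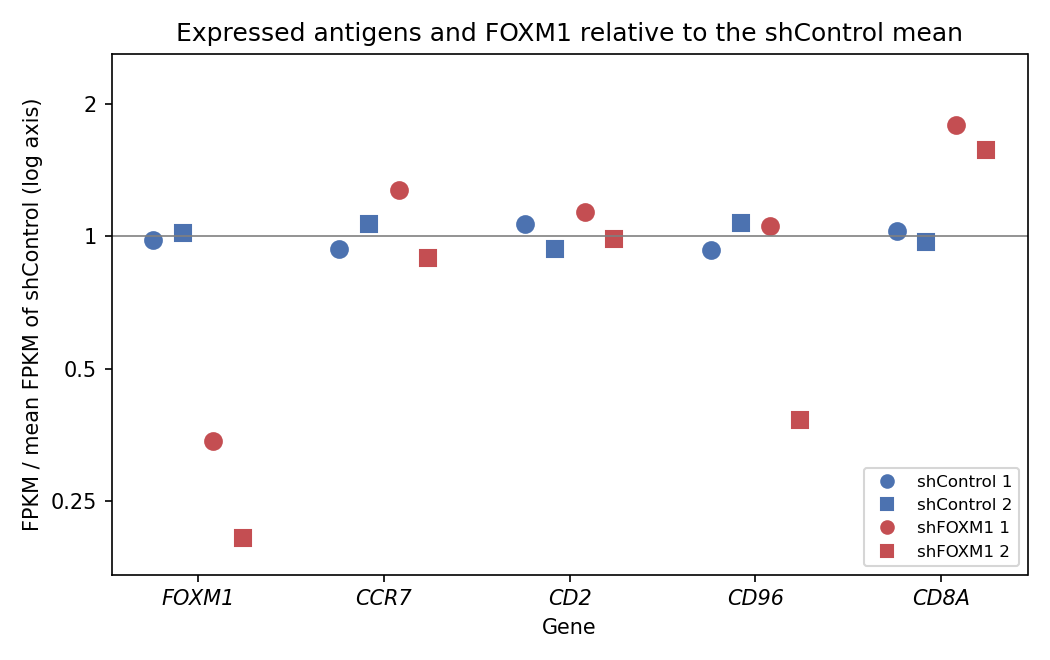
FPKM of each library divided by the mean FPKM of shControl (y, log axis) for FOXM1 and the 4 expressed antigens (x), with shControl in blue, shFOXM1 in red, circles for library 1 and squares for library 2 of a group. Both shFOXM1 libraries lie above shControl for CD8A, at 1.79 and 1.57, and shFOXM1 2 alone lies low for CD96, at 0.382.

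Over the antigens as a set, 0 of the 4 tested members passed limma's test in either direction, as did 0 of all 12033 genes (0%). At an unadjusted limma p under 0.05 there was 1 member, CD8A, higher in shFOXM1, while 17.8% of all genes were at that limit, 8.82% higher and 8.99% lower. Voom, which models the recovered reads, also called 0 members and 0 genes, again with only CD8A among the members under 0.05. With library weights, voom called 0 members, 20 genes higher and 9 lower. With 2 libraries a group the smallest two-sided exact permutation p is 0.333, so no single gene can pass such a test. The libraries come from bulk cultures, in which fewer cells with a transcript and less transcript per cell cannot be told apart.

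The antigens near 0 had 9 reads between them over 4 libraries, and 14 of their 20 library values were 0. CD4, the co-receptor for MHC class II (ENSG00000010610, chromosome 12, 6786858 to 6820808), had 0 reads in each library, which allows at most 0.043 to 0.0461 FPKM a library by the limit of 3 reads. CD6, the receptor for ALCAM (ENSG00000013725, chromosome 11, 60971680 to 61020377), also had 0 reads in each library, which allows at most 0.033 to 0.0355 FPKM. CD7 (ENSG00000173762, chromosome 17, 82314868 to 82317602) had a single read, in shControl 1, worth 0.0258 FPKM.

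CD5, the relative of CD6 that dampens T cell receptor signals (ENSG00000110448, chromosome 11, 61102395 to 61127852), had 2 and 1 reads in shControl 1 and 2 and 0 and 3 reads in shFOXM1 1 and 2. CD8B, the chain that pairs with CD8A (ENSG00000172116, chromosome 2, 86815339 to 86861924), had 0 and 1 reads in shControl 1 and 2 and 0 and 1 reads in shFOXM1 1 and 2. Its near-identical copy CD8B2 had 0 reads in all libraries, and how reads that fit both copies were counted is not stated. The groups were not apart for any of the 5 antigens. At this depth no difference was detectable for the 5 antigens, which were under the filter of the test, and a level below the limits above cannot be told from none.

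Partners of the co-receptors inside the cell were not all present. LCK, the kinase carried by CD4 and CD8, had 2 reads in the control libraries together, worth 0.0211 and 0.0203 FPKM, and 0 reads in the knockdown libraries. CD3E, the epsilon chain of the CD3 complex, was at 0.0991 and 0.0477 FPKM with the control hairpin and 0.0238 and 0.138 FPKM under knockdown. The other CD3 chains were well above these levels. CD3D was at 95.1 to 154 FPKM over the 4 libraries, CD3G at 19.2 to 23.3 FPKM and CD247, the zeta chain, at 18.4 to 24.1 FPKM. TRBC2, a constant region of the T cell receptor beta chain, was at 168 to 211 FPKM. LCK, CD3E and CD3D were singled out after their values were seen. Of the 12 genes in the list of the T cell receptor and CD3 complex, 8 were tested and 0 passed in limma or voom, with 3 higher and 5 lower by sign and a median log2 difference of -0.04, which turned to 0.031 without shFOXM1 2. Over all 12033 genes tested the median was -0.00075, with 6008 genes higher and 6025 lower by sign.

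Ligands of the antigens were measured for some receptors and at 0 for others. For CD2, CD58 was at 45 and 45.7 FPKM in control cells against 40.9 and 23.4 FPKM in knockdown cells. CD48, a weaker CD2 ligand, was at 17.2 and 17.4 FPKM with the control hairpin and 12.5 and 5.21 FPKM under knockdown, a log2 difference of -0.997 (limma, adjusted p = 0.274). For both, the shFOXM1 libraries lay below the shControl libraries, with shFOXM1 2 the lowest, while the groups overlapped for CD2 itself. NECTIN1, a ligand described for CD96, was at 6.03 and 6.05 FPKM in control cells against 4.18 and 4.35 FPKM in knockdown cells, a log2 difference of -0.42 (limma, adjusted p = 0.21). PVR, the main ligand of CD96, was at 14.2 to 21.6 FPKM over the libraries and ALCAM, the ligand of CD6, at 10.8 to 15.7 FPKM. CCL19 and CCL21, the chemokines of CCR7, were at 0 in all libraries. These 4 were named after their values were seen. Of the 19 ligands 12 were tested and 0 passed in limma or voom. By sign 6 were higher and 6 lower, against 6008 and 6025 of all genes tested. At an unadjusted limma p under 0.05 there were 2 ligands lower, and 8.99% of all genes were lower at that limit. The median log2 difference of the ligands was -0.02, which turned to 0.011 without shFOXM1 2 and to 0.00066 without shControl 1.

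Of 14 cytoplasmic partners of the antigens 12 were tested, with 8 higher and 4 lower by sign, against 6008 higher and 6025 lower of all genes tested. None passed in limma or voom (0 of 12), and 3 were higher at an unadjusted limma p under 0.05, as were 8.82% of all genes. GNAI2, the inhibitory G protein subunit through which chemokine receptors signal, was at 52.5 and 47.8 FPKM in control cells against 68.9 and 65.9 FPKM in knockdown cells. PTPN6, the SHP-1 phosphatase recruited by inhibitory receptors such as CD5, was at 39.4 and 39.3 FPKM with the control hairpin and 55.7 and 49.8 FPKM under knockdown. PSTPIP1, which binds the tail of CD2, was at 11.9 and 11.8 FPKM in control cells against 14.4 and 16.4 FPKM in knockdown cells. FYN, a kinase related to LCK, was at 5.36 and 5.28 FPKM with the control hairpin and 4.12 and 4.29 FPKM under knockdown. The adjusted limma p of these 4 genes was between 0.196 for GNAI2 and 0.31 for FYN. The list's median log2 difference was 0.07, and it was 0.27 without shFOXM1 1 and 0.16 without shFOXM1 2.

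Of 19 transcription factors that act on the antigen genes in T cells 17 were tested, with 13 lower and 4 higher by sign. Over all genes tested 6025 were lower and 6008 higher. The factors had a median log2 difference of -0.17, which was -0.29 without shFOXM1 1 and -0.073 without shFOXM1 2. None passed in limma or voom (0 of 17), and 3 were lower at an unadjusted limma p under 0.05, as were 8.99% of all genes. LEF1, which with its relative TCF7 controls CD4 and CD8 genes in the thymus, was at 12.1 and 11.6 FPKM in control cells against 8.83 and 7.94 FPKM in knockdown cells (limma, adjusted p = 0.196). FOXO1, a forkhead factor that sustains CCR7 in T cells, was at 10.5 and 10.9 FPKM with the control hairpin and 8.37 and 7.56 FPKM under knockdown (limma, adjusted p = 0.226). ETS1 was at 55.5 and 56.3 FPKM in control cells against 44.6 and 46.5 FPKM in knockdown cells. GATA3, a factor of CD4 T cells, went the other way by sign, at 153 and 152 FPKM with the control hairpin and 172 and 192 FPKM under knockdown. The factors of the lineage choice were both present in control cells, ZBTB7B of CD4 cells at 8.35 and 7.99 FPKM and RUNX3 of CD8 cells at 52.8 and 58.3 FPKM, values singled out after they were seen.

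Receptor relatives of the antigens were mostly near 0, with 16 of 25 under 0.1 FPKM in both shControl libraries and 10 at 0 in all 4 libraries. Of the 5 tested 0 passed in limma or voom, with 2 higher and 3 lower by sign, against 6008 and 6025 of all genes tested. Their median log2 difference was -0.03, which turned to 0.13 without shFOXM1 2. TIGIT, which shares the ligand PVR with CD96, was at 49 and 50.4 FPKM in control cells against 49.5 and 47.8 FPKM in knockdown cells. It was named after its values were seen. CCR4, a chemokine receptor of skin-homing T cells, was at 85.4 and 95.2 FPKM with the control hairpin and 99 and 70.9 FPKM under knockdown, overlapping as CCR7 did. CCR10 was at 2.37 and 2.77 FPKM in control cells against 3.12 and 3.71 FPKM in knockdown cells. SLAMF1, a relative of CD2, was at 7.13 to 9.56 FPKM over the libraries, and CXCR4 at 73.1 and 69.1 FPKM in control cells, 68.6 FPKM in shFOXM1 1 and 49.3 FPKM in shFOXM1 2. LAG3, a relative of CD4 that lies beside it in the genome, was at 0.0215 to 0.184 FPKM over the 4 libraries.

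Other surface antigens of T lymphoma panels were lower by sign for 10 of 12 tested out of 20, against 6025 of all 12033 genes tested. Their median log2 difference was -0.19. That median was -0.0072 without shFOXM1 2 and -0.36 without shFOXM1 1. None passed in limma or voom (0 of 12), and 1 was lower at an unadjusted limma p under 0.05, as were 8.99% of all genes. The antigen at that limit was TNFRSF8, or CD30, at 65.8 and 78 FPKM with the control hairpin and 49.5 and 47.2 FPKM under knockdown (limma, adjusted p = 0.187). DPP4, the CD26 antigen, was at 28.2 and 27.1 FPKM in control cells, 24.7 FPKM in shFOXM1 1 and 11.6 FPKM in shFOXM1 2, and was named after its values were seen. IL7R was at 7.98 and 8.19 FPKM in control cells against 6.31 and 6.97 FPKM in knockdown cells, and the costimulator CD28 at 2.26 and 2.25 FPKM with the control hairpin and 1.87 and 1.09 FPKM under knockdown. LCK, CD3E, CD28, PTPRC and CD163 are each in 2 of the lists.

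**Figure D3:**
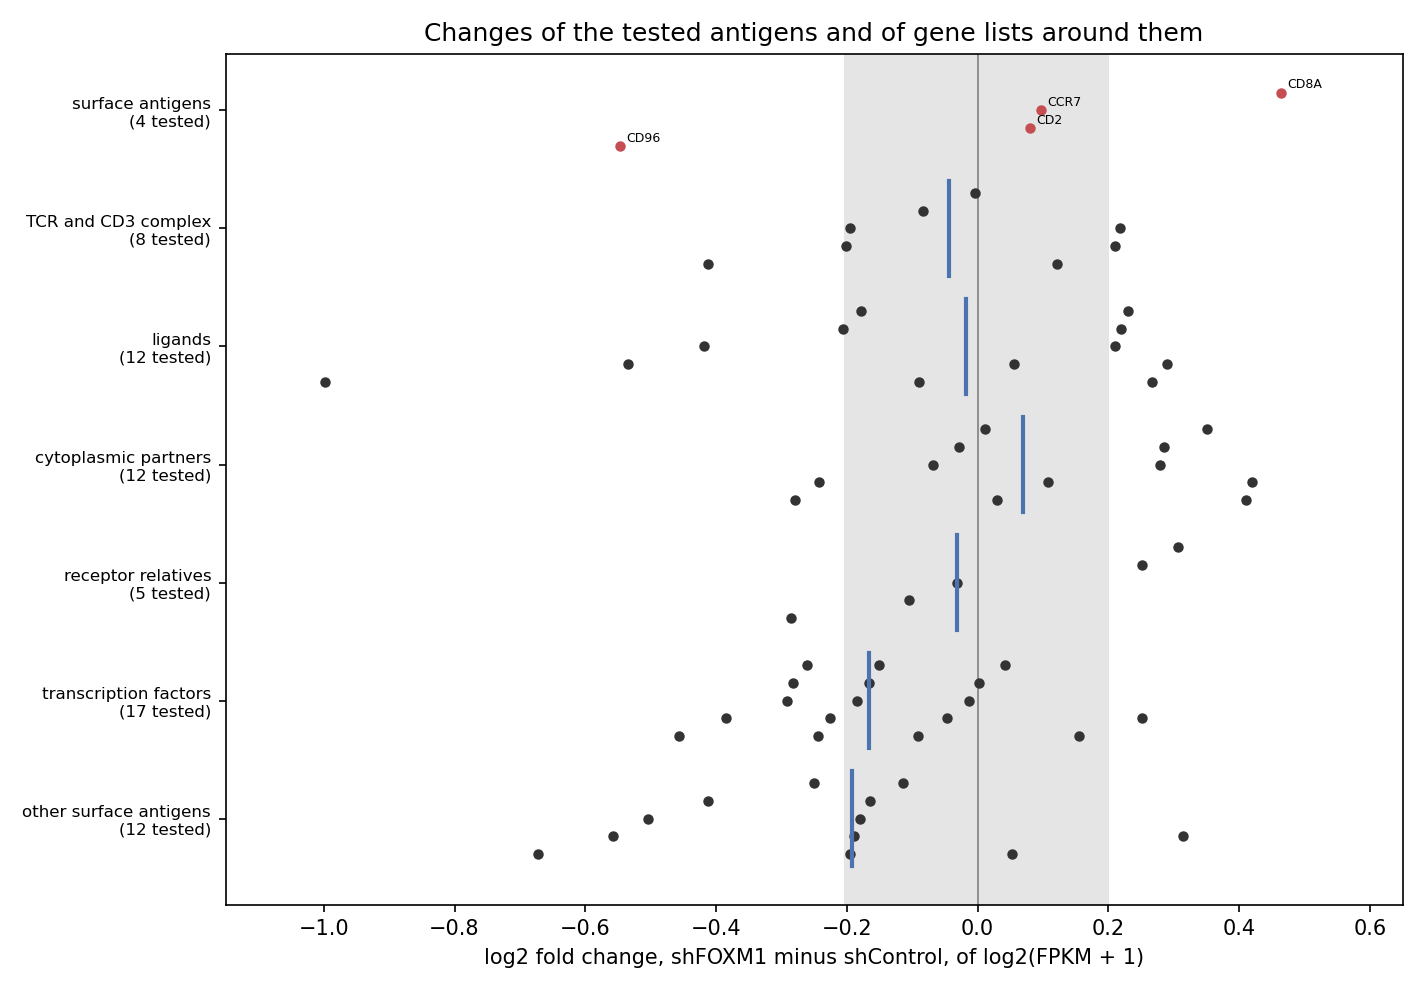
Log2 fold change of log2(FPKM + 1), shFOXM1 minus shControl (x), of each tested gene in the antigens (red) and in 6 lists around them (black), with a blue bar at each list's median and grey shading between the quartiles of all 12033 genes tested, -0.20 and 0.20. CD96 at -0.55 and CD8A at 0.46 lie outside the shading, CCR7 at 0.10 and CD2 at 0.08 inside it, and no gene shown passed the test.

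Markers of other cells that can carry these antigens were at or near 0 for thymocytes and, except CSF1R, for monocytes and low for NK cells, while some B cell markers were measured. Thymocytes hold CD4 and CD8 together, and of 7 thymocyte markers 6 were at 0 in all libraries while RAG1 reached 0.0173 FPKM. NK cells carry CD2, CD7, CD96 and often CD8A. Of 8 NK markers 5 were at 0 throughout, and their summed level was 0.165 and 1.62 FPKM with the control hairpin and 0.518 and 0.217 FPKM under knockdown, with NCR3 the highest at 1.45 FPKM in shControl 2. KLRB1 was at 0.0487 and 0.14 FPKM in control cells and at 0 under knockdown. Monocytes carry CD4, and of 9 markers 8 were under 0.1 FPKM in both shControl libraries, with S100A8 and CD163 at 0, while CSF1R was at 8.47 to 13.5 FPKM over the libraries. The summed level of the monocyte markers was 13 and 9.18 FPKM in control cells against 13.6 and 8.55 FPKM in knockdown cells. Of 8 B cell markers, MS4A1, the CD20 antigen, was at 0 throughout. BLK was at 28 to 33.5 FPKM and made up most of the summed B cell level, which was 37.2 and 36.7 FPKM with the control hairpin and 40.1 and 42.9 FPKM under knockdown. FCER2 had 5.69 and 6.78 FPKM in control cells, 6.04 FPKM in shFOXM1 1 and 2.76 FPKM in shFOXM1 2, while CD79A had 1.73 and 1.44 FPKM in control cells, 0.27 FPKM in shFOXM1 1 and 7.38 FPKM in shFOXM1 2. Of the 3 B cell and 1 monocyte markers tested, 0 passed in limma or voom. In shFOXM1 2, where CD96 was low, CD79A was at its highest, FCER2 at its lowest and BLK within its range over the other libraries. Whether these values bear on that of CD96 was not tested.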

How the data were processed

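RNA was sequenced from 2 shControl and 2 shFOXM1 cultures of Myla cells. Per the labels' protocols, libraries were made with a SMARTER mRNA kit. The authors deposited 1 table of FPKM values with the gene length in bases (per the file headers). The authors' aligner, counter and strand setting were not given in the sources used here. Genome builds named in the submitters' processing notes are GRCm38 and mm10, while all 58735 genes of the table equal GENCODE release 29 of GRCh38 in position, and coordinates are printed as in the table. The columns named sh0 were taken as shControl and those named sh1 and sh2 as shFOXM1 1 and 2, with 0 columns of other samples. The sh0 columns carry a replicate suffix and the sh1 and sh2 columns carry none, so the shFOXM1 libraries may hold different hairpins. Nothing states that libraries of a group came from separate transductions, so the p-values reflect library-to-library spread, possibly a technical one. In shFOXM1 that spread may also hold a difference between hairpins, which cannot be told apart here.

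Whole reads were recovered by multiplying FPKM with gene length, and 100% of values came within 0.01 of a whole read. The library totals implied by the FPKM were 1.44% below the recovered reads in shFOXM1 1 and 3.80% above in shFOXM1 2. They were 0.319% above in shControl 1 and 0.173% below in shControl 2. Scaled to the recovered totals, the log2 difference was 0.096 for CD2, 0.11 for CCR7, -0.54 for CD96 and 0.47 for CD8A. Libraries of a group differed beyond counting noise (chi-square over its degrees of freedom was 3.93 in shControl and 36.5 in shFOXM1), so every library was kept as a sample. The test was limma 3.58.1 (R 4.3.3) on log2(FPKM + 1) for the 12033 genes reaching 1 FPKM in 2 libraries, two-sided, with trended empirical Bayes and a Benjamini-Hochberg adjusted p under 0.05. A pseudocount of 1 understates changes of low genes. The fit was tested on simulated data. It called 25 of 100 genes with a log2 change of 1 and 64 of 100 with a log2 change of 2. Of 11833 genes simulated with no change it called 1. A gene that did not pass can thus still have changed. The 10 lists were described by counts and medians with no set test. The members, lists and thresholds were chosen with earlier results of these data known. Named were all members, FOXM1, up to 4 tested genes per list with the smallest unadjusted p (the highest in level where fewer than 2 were tested) and measured genes within 50 kb of a member; others were named after their values were seen. Some genes that this rule names are not reported here. Genes were not matched by pattern, as 4 libraries are too few. Intervals of read counts are exact Poisson intervals at 95%, and the limit for 0 reads is 3 reads. Alternatives were other pseudocounts, filters and scalings, a replicate block, other empirical Bayes settings, voom on the recovered reads, TPM for the baseline classes and each library left out.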

Additional observations from a re-analysis of the deposited data

How the results depend on the processing

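All alternatives were planned. Under every one, 0 members were called higher, and 0 lower except without shFOXM1 1, where CD96 was called (0 to 1 over the fits without single libraries). Over all genes limma or voom called 0 in each direction except under voom with library weights, with 20 higher and 9 lower, and in fits without single libraries, with 0 to 1360 higher and 0 to 1744 lower. Those fits gave 281 and 355 calls without shFOXM1 2, 1360 and 1744 without shFOXM1 1 and 0 without either control. With a knockdown library dropped, the lone library is assumed to vary like the controls. Without single libraries the log2 difference ran from -0.019 to 0.18 for CD2, which turned negative without shControl 2 (-0.010) or shFOXM1 1, from -0.16 to 0.35 for CCR7, which turned negative without shFOXM1 1, from -1.17 to 0.073 for CD96, which turned positive without shFOXM1 2, and from 0.40 to 0.53 for CD8A. CD8A was higher in all 15 of its alternatives. In those that kept all libraries it was at 0.46 to 0.76, with a limma or voom adjusted p from 0.180 to 0.454. With a mean of at least 5 FPKM required it could not be tested. Pseudocounts of 0.1 and 0.01 gave CD8A 0.70 and 0.74, which is over 1.5 times its value at a pseudocount of 1, as that pseudocount is close to its level. Deviations of same-numbered libraries correlated at 0.0421 across genes, for 2 pairs, so the numbers were not taken to pair cultures. The replicate block called 0 genes, with an adjusted p of 0.303 for CD8A, 0.477 for CD96, 0.802 for CD2 and 0.845 for CCR7. Without a filter, CD5, CD7 and CD8B had adjusted p of 1.00, 0.818 and 1.00, and CD4 and CD6 had no reads to test. Of 112 list medians under alternatives, 20 moved by more than the spread between replicates. By TPM, whose values run higher than the FPKM here, 4 members were still at 1 or more and 3 under 0.1, since CD5 and CD8B then reached 0.152 and 0.126. Depth limits CD8A, with 66 to 122 reads a library, and the 5 members near 0.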

Other observations

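Some genes beside the antigens near 0 were measured. VPS37C, a subunit of the ESCRT-I sorting complex 2403 bases from CD5, was at 3.27 and 2.72 FPKM in control cells against 5.53 and 6.51 FPKM in knockdown cells. Its log2 difference was 0.81 (SE 0.15), which did not pass over all genes (limma, adjusted p = 0.176), while CD5 had at most 3 reads in any library. SECTM1, which encodes a ligand of CD7 and lies 3421 bases from it, was at 0.571 and 1.05 FPKM with the control hairpin and 0.89 and 1.55 FPKM under knockdown. TEX19, 41644 bases from CD7, was at 49.8 and 43 FPKM in control cells against 27.7 and 33.7 FPKM in knockdown cells (limma, adjusted p = 0.195). TMEM109, 48236 bases from CD6, was at 56.1 and 54.8 FPKM with the control hairpin and 46.9 and 45.5 FPKM under knockdown. Within 50 kb of CD4, which had no reads, 5 of 11 genes were measured, among them the glycolytic enzyme TPI1 at 210 to 300.3 FPKM, USP5 at 50.2 to 60 FPKM and CDCA3, a cell division gene, at 8 and 8.45 FPKM in control cells against 6.88 and 5.99 FPKM in knockdown cells.

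CD8A and CD8B lie 6942 bases apart on the same strand, the first with 66 to 122 reads a library and the second with at most 1. RMND5A, on the other side of CD8A at 6568 bases, was at 26.8 and 28.8 FPKM with the control hairpin and 22 and 32.7 FPKM under knockdown, with overlapping groups. RGPD1, 46028 bases from CD8B on the side away from CD8A, was at 2.03 and 1.89 FPKM in control cells against 2.41 and 2.56 FPKM in knockdown cells. Its groups did not overlap, as for 53.2% of genes tested, and it did not pass (limma, adjusted p = 0.426). The higher CD8A values in shFOXM1 were thus not shared by RMND5A, while RGPD1 was also higher by sign. PLCXD2, 8925 bases from CD96, was at 1.23 and 1.25 FPKM in control cells against 1.02 and 1.39 FPKM in knockdown cells, with shFOXM1 2 the highest, while CD96 was lowest there. NECTIN3, 17155 bases from CD96 on the other side, was at 0.706 and 0.756 FPKM in control cells. It was at 0.666 FPKM in shFOXM1 1 and 0.287 FPKM in shFOXM1 2, so NECTIN3 was lowest in the same library as CD96. Its values rest on 27 to 69 reads a library and were under the filter of the test. Around CCR7 the measured neighbour was the noncoding gene AC004585.1, 26766 bases away, at 2.18 and 2.09 FPKM with the control hairpin and 5.24 and 1.37 FPKM under knockdown. In both CCR7 and AC004585.1 shFOXM1 1 was the highest library and shFOXM1 2 the lowest. KLF2, a factor of T cell homing genes, was at 1.15 and 0.907 FPKM in control cells against 0.167 and 0.52 FPKM in knockdown cells. It was under the filter of the test, and its values rest on 60 reads in shControl and 21 in shFOXM1. S1PR1, the receptor by which T cells leave lymph nodes, was at 12.8 and 12.1 FPKM with the control hairpin and 19.9 and 12.4 FPKM under knockdown. Its groups overlapped (limma, adjusted p = 0.516). NECTIN3, KLF2 and S1PR1 were named after their values were seen.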
